A study of Drosophila melanogaster with 18 samples.

Results

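Expression of 10 genes of the Toll and Imd pathways, the 2 NF-kappaB routes of fly innate immunity, was followed across 18 RNA-seq libraries of Drosophila wing discs. The 10 members are the ligand gene spz, the receptor gene Tl, the adaptor gene Myd88, the inhibitor gene cact and the transcription factor genes Dif and dl of the Toll pathway, and the receptor genes PGRP-LC and PGRP-LE, the adaptor gene imd and the factor gene Rel of the Imd pathway. They were chosen by name and matched by FlyBase gene identifier, and all 10 were found among the 17559 genes of the deposited count tables. All 10 passed the filter on low counts in every comparison.

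The libraries come from discs of wandering larvae of the third instar that expressed dominant negative Tip60 (Tip60dn) or wild type Tip60 (Tip60wt), or are labelled as control, with 48 h or 78 h of expression and 3 libraries in each of the 6 groups. Tip60 is the acetyltransferase subunit of the Tip60/NuA4 chromatin complex. Larvae of all 6 groups, controls included, were heat-shocked at 37 °C for 30 min to make overlapping clones, held at 18 °C with the transgene silent, and moved to 28 °C for the stated time before dissection. Each library was made from 40 pooled discs. The driver and the control genotype are not given in the labels, and the study's stated contrast sets Tip60dn against Tip60wt at each duration.

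In the Toll pathway, cleaved Spätzle binds the receptor Toll, and the adaptor Myd88 passes the signal on to the breakdown of Cactus, which otherwise holds the NF-kappaB factors Dorsal and Dif in the cytoplasm. In the Imd pathway, peptidoglycan bound by PGRP-LC at the cell surface or PGRP-LE inside the cell acts through the adaptor Imd on the NF-kappaB factor Relish. Both routes are best known for switching on antimicrobial peptide genes in the fat body, the gut and hemocytes, the blood cells of the fly, and the Toll route also patterns the embryo.

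Library totals ran from 65277725 to 105716567 counts, and the count of a member in a library ran from 196 to 15968. Tip60 counts include any transgene reads, and Tip60 averaged 3040 ± 460 CPM (counts scaled to library size) in Tip60dn discs, 1630 ± 209 in Tip60wt discs and 33.7 ± 2.59 in control discs at 48 h (SD, n = 3 each). At 78 h the Tip60 means were 2080 ± 400 CPM in Tip60dn, 1580 ± 524 in Tip60wt and 38.9 ± 5.79 in control discs. The 8 measured wing disc markers summed to between 2820 and 3370 CPM in every library. Nothing in the labels says that the 3 libraries of a group came from separate crosses, so p-values measure the spread between these libraries, which may be technical. CPM below are on 1 scale over the 18 libraries, and a call means a Benjamini-Hochberg adjusted p under 0.05 over all genes tested in edgeR's quasi-likelihood test, with no minimum fold.

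Fat body and salivary gland markers each stood apart in 1 library. The 8 fat body markers summed to 3050 CPM in Tip60wt replicate 2 at 48 h, and to 18.1 to 495 CPM in the other 17 libraries. Dif was 6.66 CPM in that Tip60wt library, the highest of its group, and the log2 fold change of Dif in Tip60dn over Tip60wt without it was 2.74 (adjusted p = 0.0166). The 5 salivary gland markers summed to 1850 CPM in control replicate 1 at 78 h, and to 13.2 to 117 CPM in the other 17 libraries. Without that control library 4 members, 3 higher and 1 lower, were called in Tip60dn against control at 78 h, where 7 were called with it. The calls of cact (-0.13, adjusted p = 0.0535), PGRP-LC (0.61, adjusted p = 0.0585) and Rel (0.13, adjusted p = 0.0543) were lost.

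Across the members, Tip60dn discs carried more Dif, spz, Tl, PGRP-LC and Rel transcript and less cact and Myd88 transcript than Tip60wt discs at both durations, with imd also lower at 78 h. At 48 h, 7 of 10 members were called between Tip60dn and Tip60wt, 5 higher and 2 lower, where 35.7% of all genes tested were called, 18% higher and 17.7% lower. At 78 h the calls numbered 8 of 10, 5 higher and 3 lower, against 36.8% of all genes, 17.6% higher and 19.2% lower. Against control discs, 3 of 10 members were called at 48 h, 1 higher and 2 lower, where 39% of all genes were called, 19.6% higher and 19.4% lower. At 78 h 7 of 10 were called against control, 5 higher and 2 lower, where 44.2% of all genes were called, 22.4% higher and 21.7% lower.

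The share of members called was above the share of all genes in 3 of these 4 comparisons and below it against control at 48 h. Each member had at least 196 counts in every library, whereas all genes tested reach down to the low-count filter. The members were not compared with genes of like level, so the part of level in these shares and sizes was not tested. The size of the differences was below that of all genes in 3 of the 4 and about level with it in the other: the median absolute log2 fold change in Tip60dn against Tip60wt was 0.18 for the members and 0.22 for all genes at 48 h, and 0.21 and 0.2 at 78 h. Against control it was 0.17 for the members and 0.23 for all genes at 48 h, and 0.18 and 0.24 at 78 h. Leaving out 1 library at a time left 2 to 7 members called against Tip60wt at 48 h, the 2 without Tip60dn replicate 2, and 4 to 6 at 78 h.

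Between Tip60wt and control discs edgeR called 0 of 10 members at either duration, against 3.57% of all genes at 48 h (1.73% higher, 1.84% lower) and 4.07% at 78 h (2.09% higher, 1.97% lower). At an unadjusted p under 0.05 there were 3 members at each duration. DESeq2 called 0 at 48 h and 2 at 78 h, Tl and spz, and limma-voom called 0 at both.

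**Figure D1:**
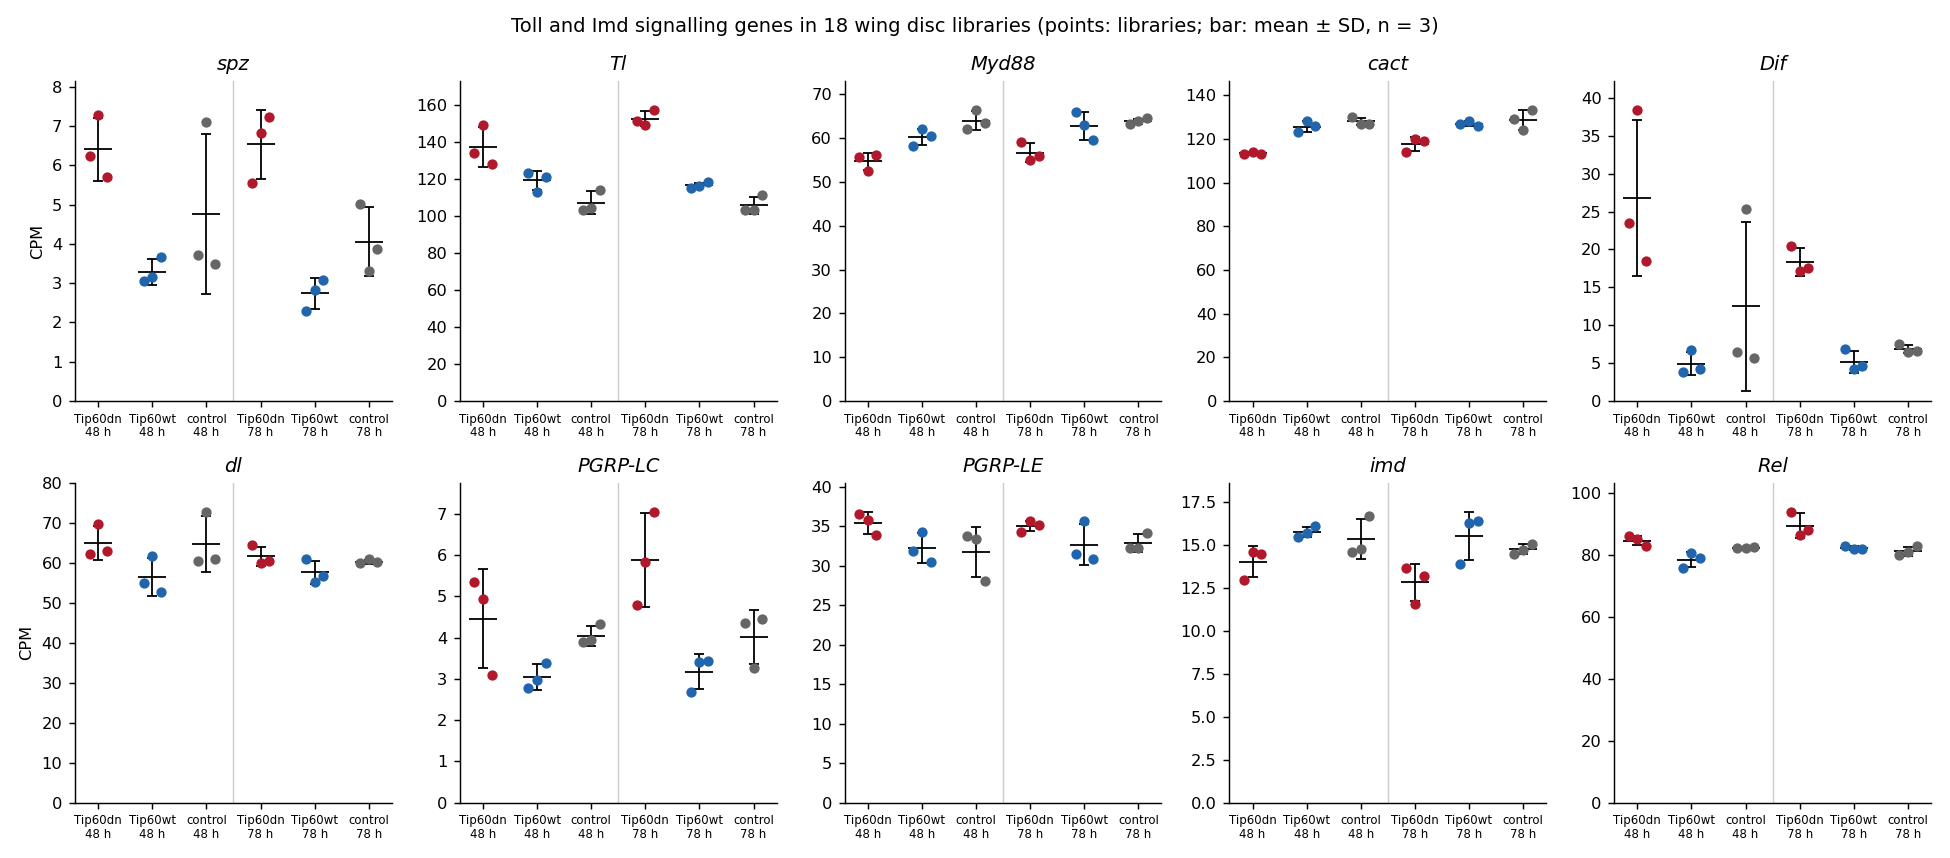
CPM of each member by library (points), with the group mean and SD (bars, n = 3), for Tip60dn, Tip60wt and control discs at 48 h and at 78 h of expression; every axis starts at 0. Dif lies at 17.1 CPM or above in all 6 Tip60dn libraries, and 1 control library at 48 h, with 25.4 CPM, lies among them.

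The ligand gene spz (FBgn0003495) lies on chromosome 3R at positions 27064990 to 27070070, minus strand, in the Ensembl annotation of build BDGP6.54, which gives all positions below. At 48 h spz had 6.23, 7.29 and 5.7 CPM in Tip60dn discs, 3.05, 3.15 and 3.66 CPM in Tip60wt discs and 3.71, 7.11 and 3.48 CPM in control discs. All 3 Tip60dn libraries stood above all 3 Tip60wt libraries, and control replicate 2 stood with the Tip60dn libraries. At 78 h spz had 5.55, 6.83 and 7.22 CPM in Tip60dn discs, 2.3, 2.83 and 3.09 CPM in Tip60wt discs and 5.02, 3.3 and 3.86 CPM in control discs. Here the Tip60dn libraries were above all libraries of both other groups. In edgeR, spz rose in Tip60dn over Tip60wt by a log2 fold change of 0.97 at 48 h (SE 0.25, adjusted p = 0.0159) and of 1.25 at 78 h (SE 0.18, adjusted p = 0.00101). The 48 h call was lost without Tip60dn replicate 2 (adjusted p = 0.0563) and without Tip60wt replicate 1 (adjusted p = 0.0558). Against control the values were 0.43 at 48 h (SE 0.25, adjusted p = 0.207) and 0.69 at 78 h (SE 0.18, adjusted p = 0.0133). Without control replicate 2 the 48 h value became 0.83 and was called (adjusted p = 0.00468). The 78 h call against control was lost when control replicate 2 or 3 or Tip60dn replicate 3 was left out (adjusted p = 0.0517, 0.0508 and 0.0525).

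The receptor gene Tl (FBgn0262473; 3R, 26799041 to 26842403, plus strand) was the member with the highest CPM in Tip60dn discs. At 48 h Tl had 134, 149 and 128 CPM in Tip60dn discs, 123, 113 and 121 CPM in Tip60wt discs and 103, 104 and 114 CPM in control discs. Its level at 78 h was 151, 149 and 157 CPM in Tip60dn discs, 115, 116 and 118 CPM in Tip60wt discs and 103, 103 and 111 CPM in control discs. The Tip60dn libraries were above those of both other groups at each duration, and at 78 h the Tip60wt libraries were also all above the control libraries. Tl rose in Tip60dn over control by 0.36 at 48 h (SE 0.07, adjusted p = 0.0025) and by 0.53 at 78 h (SE 0.04, adjusted p = 2.42e-05) on the log2 scale, in edgeR. Over Tip60wt it rose by 0.21 at 48 h (SE 0.07, adjusted p = 0.034) and by 0.39 at 78 h (SE 0.04, adjusted p = 0.000161). The 0.21 at 48 h was called in 5 of 12 alternatives: leaving out Tip60dn replicate 1 or 2 or any of the 3 Tip60wt libraries ended the call, with 0.14 to 0.22 and adjusted p from 0.0658 to 0.125. The other 3 values were called in 12 of 12. Tip60wt against control gave 0.15 at 48 h (adjusted p = 0.285) and 0.14 at 78 h (adjusted p = 0.0793), and DESeq2 called the 78 h value (adjusted p = 0.0203).

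The adaptor gene Myd88 (FBgn0033402; 2R, 9302823 to 9308722, minus strand) was lower in Tip60dn discs by a small amount. Its level in CPM at 48 h was 55.6, 52.4 and 56.1 in Tip60dn discs, 58.3, 62 and 60.4 in Tip60wt discs and 62.2, 66.4 and 63.4 in control discs, with no overlap between the 3 groups, although the nearest Tip60wt and control libraries differed only in the decimals. At 78 h the levels were 59.1, 55 and 56 CPM in Tip60dn discs, 66, 62.9 and 59.6 CPM in Tip60wt discs and 63.2, 63.8 and 64.5 CPM in control discs, with the Tip60dn libraries again lowest and the other 2 groups overlapping. Myd88 fell in Tip60dn against control by 0.22 at 48 h (SE 0.04, adjusted p = 0.0038) and by 0.16 at 78 h (SE 0.04, adjusted p = 0.0148) on the log2 scale in edgeR, and the second call was lost without Tip60dn replicate 2 (adjusted p = 0.0597). Against Tip60wt the log2 values were -0.14 (adjusted p = 0.0402) and -0.15 (adjusted p = 0.0279), each called in 7 of 12 alternatives. The call at 48 h was lost without Tip60dn replicate 1 or 2 or Tip60wt replicate 2 or 3 (-0.11 to -0.15, adjusted p from 0.0686 to 0.137), and that at 78 h without Tip60dn replicate 2 or 3 or Tip60wt replicate 1 or 2 (-0.11 to -0.15, adjusted p from 0.0625 to 0.101).

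The inhibitor gene cact (FBgn0000250; 2L, 16313036 to 16326207, minus strand) encodes the IkappaB protein of the pathway and was lower in Tip60dn discs. At 48 h it had 113, 114 and 113 CPM in Tip60dn discs, 123, 128 and 126 CPM in Tip60wt discs and 130, 127 and 127 CPM in control discs. At 78 h its level was 114, 120 and 119 CPM in Tip60dn discs, 127, 128 and 126 CPM in Tip60wt discs and 129, 124 and 133 CPM in control discs. Every Tip60dn library was below every library of the other 2 groups of its duration. At 48 h cact fell in Tip60dn by 0.15 against Tip60wt (SE 0.03, adjusted p = 0.00773) and by 0.17 against control (SE 0.03, adjusted p = 0.00311) on the log2 scale, called in 12 of 12 alternatives each. At 78 h the log2 values were -0.11 against Tip60wt (SE 0.04, adjusted p = 0.0386) and -0.13 against control (SE 0.04, adjusted p = 0.0209), called in 4 and 9 of 12 alternatives. Leaving out any 1 of the 6 libraries ended the call against Tip60wt (-0.09 to -0.13, adjusted p from 0.0556 to 0.0988), and leaving out control replicate 1 or 3 or Tip60dn replicate 1 ended that against control (-0.1 to -0.13, adjusted p from 0.0535 to 0.0749). With the replicate number as a block, the value against Tip60wt had an adjusted p of 0.0532. At 78 h same-numbered Tip60dn and Tip60wt libraries deviated together.

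Dif (FBgn0011274; 2L, 17413248 to 17433161, minus strand), which encodes the NF-kappaB factor used mostly in the immune response of larvae and adults, had the largest fold changes of the 10 members between Tip60dn and both other arms at both durations, with 1 of the 4 not passing the test. At 48 h Dif had 23.5, 38.4 and 18.5 CPM in Tip60dn discs, 3.81, 6.66 and 4.26 CPM in Tip60wt discs and 6.44, 25.4 and 5.71 CPM in control discs. Dif levels at 78 h were 20.5, 17.1 and 17.5 CPM in Tip60dn discs, 6.85, 4.16 and 4.57 CPM in Tip60wt discs and 7.45, 6.5 and 6.6 CPM in control discs. Tip60dn libraries lay above all Tip60wt libraries at both durations and above all control libraries at 78 h, and control replicate 2 at 48 h overlapped them. Dif rose in Tip60dn over Tip60wt by a log2 fold change of 2.45 at 48 h (SE 0.57, adjusted p = 0.00907), or 5.46-fold, and of 1.83 at 78 h (SE 0.17, adjusted p = 9.99e-05), or 3.54-fold, in edgeR. Over control it rose by 1.43 at 78 h (SE 0.17, adjusted p = 0.00024), or 2.7-fold. These 3 values were called in 12 of 12 alternatives.

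Against control at 48 h the Dif value of 1.1 was not called (SE 0.54, adjusted p = 0.137), though 3 of 12 alternatives called it. Among these, leaving out control replicate 2 gave 2.14 (adjusted p = 0.00276) and limma-voom gave 1.37 (adjusted p = 0.0445). Leaving out any other library gave 0.75 to 1.3 without a call. Tip60wt against control gave -1.35 at 48 h (SE 0.55, adjusted p = 0.252) and -0.39 at 78 h (SE 0.17, adjusted p = 0.232). The 78 h value became -0.64 and was called without Tip60wt replicate 1 (adjusted p = 0.0102).

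The second Toll factor gene, dl (FBgn0260632; 2L, 17436830 to 17450364, minus strand), which encodes Dorsal, lies close to Dif on the chromosome and was not called between any arms. At 48 h dl had 62.2, 69.8 and 63 CPM in Tip60dn discs, 55, 61.7 and 52.7 CPM in Tip60wt discs and 60.5, 72.8 and 60.9 CPM in control discs. The 78 h libraries had 64.4, 60 and 60.6 CPM in Tip60dn discs, 60.9, 55.3 and 56.8 CPM in Tip60wt discs and 59.9, 60.9 and 60.2 CPM in control discs. The highest control value at 48 h, 72.8 CPM, again belonged to replicate 2, the library that was also highest among these controls for Dif and spz. Tip60dn against Tip60wt gave log2 fold changes of 0.21 at 48 h (SE 0.09, adjusted p = 0.0918) and 0.1 at 78 h (SE 0.04, adjusted p = 0.114), and against control 0.01 and 0.04, with no call in edgeR. The value over Tip60wt was called in 2 of 12 alternatives at 48 h, where the lowest adjusted p was 0.00688, and in 1 of 12 at 78 h. Leaving out Tip60wt replicate 2 at 48 h gave 0.27 over Tip60wt and a call (adjusted p = 0.0467), and leaving out Tip60wt replicate 1 at 78 h gave 0.13 and a call (adjusted p = 0.0303). Tip60wt against control gave -0.2 at 48 h (adjusted p = 0.285), and with the replicate block, taken to pair those libraries, dl was the 1 member called (adjusted p = 0.0469).

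The ratio of Dif to dl per exon length (RPKM, the CPM per kilobase of exon) was 0.331 to 0.621 in Tip60dn libraries, 0.0782 to 0.122 in Tip60wt libraries and 0.106 to 0.394 in control libraries at 48 h. At 78 h it was 0.323 to 0.36 in Tip60dn, 0.0849 to 0.127 in Tip60wt and 0.12 to 0.14 in control libraries. The upper end in control libraries at 48 h was again replicate 2, and the other 2 had ratios of 0.12 and 0.106. The sum of Dif and dl relative to cact ran from 0.342 to 0.511 in the 6 Tip60dn libraries and from 0.235 to 0.28 in the 6 Tip60wt libraries. In the control libraries it was 0.413 in replicate 2 at 48 h and 0.263 to 0.285 in the other 5.

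**Figure D2:**
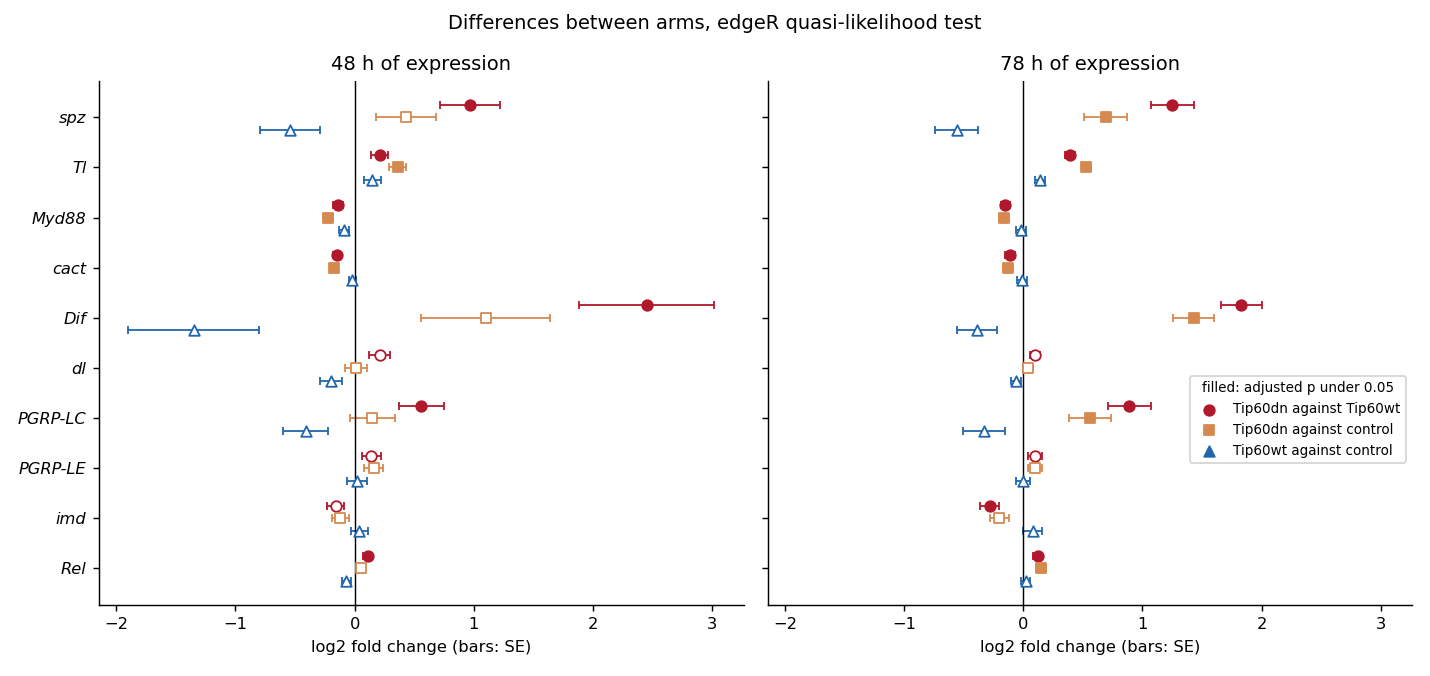
Log2 fold change of each member (points, with SE bars) at 48 h (left) and 78 h (right) for Tip60dn against Tip60wt, Tip60dn against control and Tip60wt against control; filled symbols had an adjusted p under 0.05. Dif lies farthest right, at 2.45 and 1.83 against Tip60wt, and no value of Tip60wt against control is filled.

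Of the Imd receptors, PGRP-LC (FBgn0035976; 3L, 9338810 to 9348336, plus strand), the main surface sensor, had the lowest mean level per length of the 10 in each group. At 48 h it had 5.34, 4.94 and 3.09 CPM in Tip60dn discs, 2.78, 2.97 and 3.39 CPM in Tip60wt discs and 3.89, 3.93 and 4.33 CPM in control discs. Tip60dn replicate 3 fell within the range of the Tip60wt libraries. At 78 h PGRP-LC had 4.78, 5.84 and 7.05 CPM in Tip60dn discs, 2.69, 3.41 and 3.43 CPM in Tip60wt discs and 4.35, 3.27 and 4.45 CPM in control discs, and here the Tip60dn libraries were above all libraries of both other groups. PGRP-LC rose at 78 h over Tip60wt by a log2 fold change of 0.89 (SE 0.18, adjusted p = 0.00483), called in 12 of 12 alternatives. At 78 h it also rose over control, by 0.56 (SE 0.18, adjusted p = 0.0323, called in 7 of 12). That call was lost without Tip60dn replicate 2 or 3 or any of the 3 control libraries (0.4 to 0.63, adjusted p from 0.0508 to 0.129). At 48 h the value over Tip60wt was 0.56 (SE 0.19, adjusted p = 0.0489), called in 3 of 12 alternatives, and over control it was 0.15 (adjusted p = 0.587). The 48 h call was lost with RLE size factors (adjusted p = 0.0514) and without Tip60dn replicate 1 or 2 or any of the 3 Tip60wt libraries (0.4 to 0.63, adjusted p from 0.0677 to 0.174).

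PGRP-LE (FBgn0030695; X, 15801153 to 15803880, minus strand), the sensor inside the cell, ranged from 28.1 to 36.6 CPM over the 18 libraries. Its mean was 35.4 ± 1.37 CPM in Tip60dn, 32.2 ± 1.94 in Tip60wt and 31.7 ± 3.16 in control discs at 48 h (SD, n = 3 each). At 78 h the means were 35 ± 0.648 CPM in Tip60dn, 32.7 ± 2.6 in Tip60wt and 32.9 ± 1.16 in control discs. Tip60dn against Tip60wt gave 0.14 (adjusted p = 0.173) and 0.1 (adjusted p = 0.207), and no comparison of PGRP-LE between arms was called in edgeR. Without Tip60wt replicate 2 the 78 h value was 0.17 and was called (adjusted p = 0.0319). Tip60dn against control at 48 h gave 0.16 for PGRP-LE (adjusted p = 0.117), and 1 of 12 alternatives called it (adjusted p = 0.0381).

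The adaptor gene imd (FBgn0013983; 2R, 18409796 to 18413599, minus strand) had 13, 14.6 and 14.5 CPM in Tip60dn discs, 15.5, 15.7 and 16.1 CPM in Tip60wt discs and 14.6, 14.8 and 16.7 CPM in control discs at 48 h. At 78 h imd had 13.7, 11.6 and 13.2 CPM in Tip60dn discs, 13.9, 16.3 and 16.4 CPM in Tip60wt discs and 14.5, 14.7 and 15.1 CPM in control discs. The Tip60dn libraries were the lowest at both durations, although at 48 h the nearest Tip60dn and control libraries both round to 14.6 CPM. In edgeR imd fell against Tip60wt at 78 h by 0.28 on the log2 scale (SE 0.08, adjusted p = 0.0255), called in 7 of 12 alternatives. The call was lost without Tip60dn replicate 2 or 3 or Tip60wt replicate 2 or 3 (-0.21 to -0.3, adjusted p from 0.0538 to 0.0916). The value was -0.16 at 48 h (adjusted p = 0.109), and against control it was -0.12 and -0.2 (adjusted p = 0.2 and 0.0792).

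Rel (FBgn0014018; 3R, 9044183 to 9047977, minus strand), the gene of the Imd factor Relish, had 85.9, 84.9 and 82.8 CPM in Tip60dn discs, 75.8, 80.4 and 78.9 CPM in Tip60wt discs and 82.1, 82.2 and 82.3 CPM in control discs at 48 h. At 78 h Rel had 93.8, 86.3 and 88 CPM in Tip60dn discs, 82.9, 81.9 and 81.8 CPM in Tip60wt discs and 79.8, 80.8 and 82.7 CPM in control discs. All Tip60dn libraries were above all libraries of both other groups at each duration, by a narrow margin over control at 48 h, and Tip60wt and control libraries overlapped at 78 h. Rel rose over control at 78 h by 0.15 on the log2 scale (SE 0.04, adjusted p = 0.0127, called in 10 of 12 alternatives and not without control replicate 1, adjusted p = 0.0543). Over Tip60wt it rose by 0.11 at 48 h (adjusted p = 0.0355) and by 0.12 at 78 h (adjusted p = 0.0332), each called in 5 of 12. The 48 h call was lost without Tip60dn replicate 1 or 2 or Tip60wt replicate 1 or 3 (0.07 to 0.12, adjusted p from 0.0842 to 0.202), and the 78 h call without Tip60dn replicate 1 or 3 or any of the 3 Tip60wt libraries (0.08 to 0.13, adjusted p from 0.0543 to 0.0943). Against control at 48 h Rel gave 0.05 (adjusted p = 0.356).

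Per exon length, the inhibitor gene cact was the most abundant member in every group, with 34.1 ± 0.33 RPKM in Tip60dn, 37.8 ± 0.762 in Tip60wt and 38.5 ± 0.454 in control discs at 48 h (SD, n = 3 each). Tl and Rel followed, and their order differed by arm: Tl came before Rel in Tip60dn discs at both durations (26.3 ± 2.06 and 24.2 ± 0.452 RPKM at 48 h), Rel came before Tl in control discs (23.5 ± 0.0338 and 20.6 ± 1.22), and the libraries of the 2 genes overlapped in Tip60wt discs at 48 h. Myd88 and PGRP-LE were next, at 15.1 to 17.7 RPKM, and imd and dl after them, at 8.46 to 10.4 RPKM. The 3 scarcest members were Dif, spz and PGRP-LC. Dif had 4.7 ± 1.82 RPKM in Tip60dn discs, above spz at 2.71 ± 0.344, whereas in Tip60wt discs Dif had 0.862 ± 0.269, below spz at 1.39 ± 0.139, all at 48 h. In Tip60wt discs the libraries of Dif and PGRP-LC overlapped at both durations. At 78 h the libraries of Dif and spz overlapped in Tip60dn discs (3.23 ± 0.329 and 2.76 ± 0.371 RPKM).

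**Figure D3:**
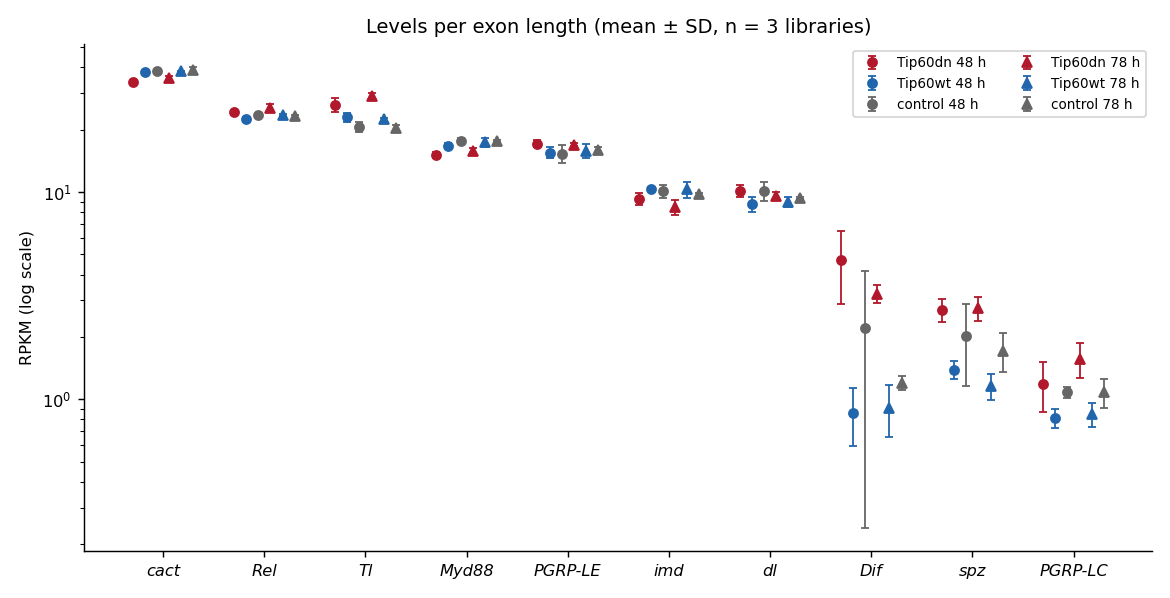
Mean level per exon length (RPKM, log scale, with SD, n = 3) of the 10 members in Tip60dn, Tip60wt and control discs at 48 h (circles) and 78 h (triangles), ordered by their mean over groups. The inhibitor gene cact lies at 34.1 RPKM or above in every group, and Dif, spz and PGRP-LC lie lowest.

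No member was called for a change between durations. In the 18-library fit edgeR called 0 of 10 members for the difference between 78 h and 48 h in Tip60dn against Tip60wt, Tip60dn against control or Tip60wt against control, and 0% of all 11173 genes in each. At an unadjusted p under 0.05 there was 1 member, Tl, in each of the first 2 and none in the third, and DESeq2 and limma-voom also called 0 members. For Dif the difference in Tip60dn against Tip60wt was -0.62 on the log2 scale (SE 0.63, adjusted p = 0.914), for spz 0.29 (SE 0.33, adjusted p = 0.928), for PGRP-LC 0.34 (SE 0.27, adjusted p = 0.891) and for Tl 0.18 (SE 0.08, adjusted p = 0.866). Within Tip60dn discs, 78 h against 48 h, edgeR, DESeq2 and limma-voom called 0 members, and edgeR called 0.134% of all genes (0.0537% higher, 0.0806% lower). The 2 members at an unadjusted p under 0.05 there were Tl at 0.15 (SE 0.05, adjusted p = 0.447) and Rel at 0.08 (SE 0.03, adjusted p = 0.52). Within Tip60wt and within control discs 0 members and 0% of all genes were called, and no member had an unadjusted p under 0.05.

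By the overlap of libraries, 8 of 10 members were separate between Tip60dn and Tip60wt at 48 h and 8 of 10 at 78 h, where 49.6% and 47.8% of all genes were separate. Between Tip60dn and control the counts were 6 of 10 at 48 h and 9 of 10 at 78 h, with 50.8% and 56.8% of all genes. Between Tip60wt and control they were 3 and 2 of 10, with 21.6% and 26.6% of all genes.

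Markers of hemocytes, a cell type known to use both pathways, were also higher in Tip60dn discs. Of all genes tested, 18% and 17.6% were called higher over Tip60wt at 48 h and 78 h, and 19.6% and 22.4% over control. Of 13 measured hemocyte markers, 11 were called higher and none lower in Tip60dn than in Tip60wt discs at 48 h (median log2 fold change 1.73), and 11 of the 12 tested at 78 h (1.45). Against control, 10 of 13 were called higher at 48 h and 7 of 12 at 78 h (median 0.92 and 0.71). In Tip60wt against control 3 were called lower and 0 higher at 48 h, and 0 were called at 78 h (median -0.07 and -0.49). The 7 in Tip60dn over control at 78 h became 11 without Tip60dn replicate 1, and 1 without Tip60dn replicate 2, Tip60dn replicate 3 or control replicate 1. They became 4 without control replicate 2 and 2 without control replicate 3. The sum of the 13 markers ran from 1880 to 2190 CPM in Tip60dn, 1350 to 1650 in Tip60wt and 1220 to 1690 in control libraries at 48 h. At 78 h it ran from 1750 to 2140 CPM in Tip60dn, 1190 to 1600 in Tip60wt and 1400 to 1540 in control libraries, and 1 marker, lz, was at 0 in Tip60wt replicate 1. In bulk discs, more cells of a type and more RNA per cell cannot be told apart. Of 9 muscle and myoblast markers, 8 were called higher in Tip60dn than in Tip60wt discs at 78 h (5 without Tip60dn replicate 2 or Tip60wt replicate 2) and 1 at 48 h. Over control 6 of these 9 were called higher at 78 h and 5 at 48 h. The 5 became 0 without control replicate 1, 1 without control replicate 2 or Tip60dn replicate 3, and 2 without Tip60dn replicate 2. Of 4 trachea markers, 2 were called higher over Tip60wt and 3 over control at each duration. The 2 at 48 h became 1 when any of the 6 libraries was left out. Their sum was 901 to 944 CPM in Tip60dn, 814 to 876 in Tip60wt and 734 to 800 in control libraries at 48 h. At 78 h it was 904 to 947 CPM in Tip60dn, 835 to 889 in Tip60wt and 754 to 782 in control libraries at 78 h, with no overlap between arms and no marker at 0.

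In 2 libraries Dif was high without a high level of the hemocyte marker Hml, a contrast that was picked out after the values were seen. Control replicate 2 at 48 h had 25.4 CPM of Dif and 51 CPM of Hml, a gene that marks larval hemocytes, while the other 2 control libraries had 49.8 and 60.3 CPM of Hml with 6.44 and 5.71 CPM of Dif. Tip60dn replicate 1 at 78 h had 20.5 CPM of Dif, the highest of its group, with 60.7 CPM of Hml, whereas the other 2 had 177 and 182 CPM of Hml. Summed without Ppn, which the list also holds and which makes up a large part of the total, the other 12 markers came to 456 CPM in that control library and 509 CPM in that Tip60dn library. The other 5 Tip60dn libraries had 803 to 1130 CPM, the 6 Tip60wt libraries 366 to 476 and the other 5 control libraries 400 to 530. With Ppn included, the 13 markers summed to 1220 CPM in that control library and to 1750 CPM in that Tip60dn library. The latter sum was above those of all Tip60wt libraries (at most 1650 CPM) and all control libraries (at most 1690 CPM). Without Tip60dn replicate 1 the log2 fold change of Dif over Tip60wt at 78 h was 1.74 (adjusted p = 0.000348). The part of hemocyte, muscle and trachea RNA in the differences of the members was not tested.

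**Figure D4:**
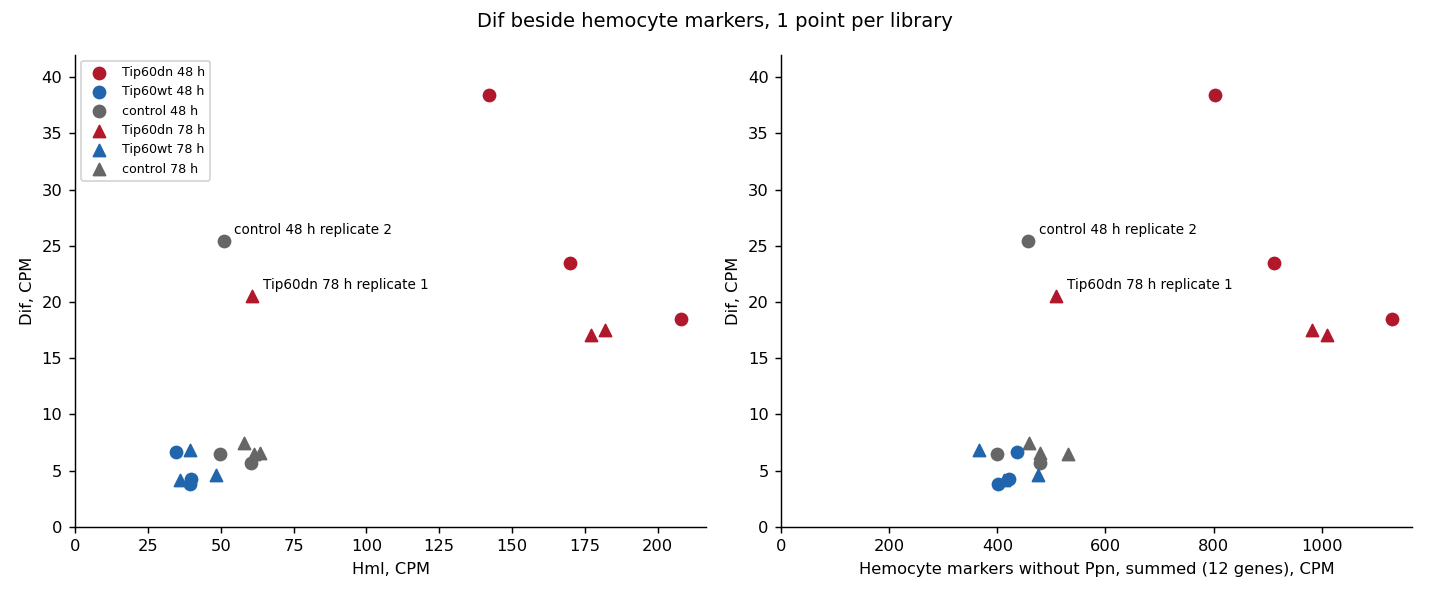
Dif (y axis, CPM) beside Hml (left, CPM) and beside the sum of 12 hemocyte markers without Ppn (right, CPM), 1 point per library, circles for 48 h and triangles for 78 h. Control 48 h replicate 2 and Tip60dn 78 h replicate 1 have Dif at 25.4 and 20.5 CPM with Hml at 51 and 60.7 CPM.

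The other genes of the pathways, 106 measured genes in 6 lists, were called in both directions. In Tip60dn against Tip60wt, 35.7% of all genes were called at 48 h and 36.8% at 78 h. The shares of tested genes called were 55.6% and 33.3% for the Toll extracellular list and 33.3% and 66.7% for Toll receptors. They were 42.9% and 57.1% for Toll genes inside the cell, and 42.9% at both durations for Imd genes inside the cell. For PGRP family genes they were 28.6% and 16.7%, and for antimicrobial genes 16.7% and 22.2%. Between Tip60wt and control discs 2 of 18 tested genes of the Toll extracellular list and 2 of 12 antimicrobial genes were called at 48 h, or 11.1% and 16.7%, where 3.57% of all genes were called. The other lists had 0 or 1 call, and at 78 h no list had more than 1. The Toll extracellular list holds 16 measured genes of recognition, of the protease cascade and of inhibitors, and 5 ligand genes related to spz (NT1, spz3, spz4, spz5 and spz6). Of these 21 genes, 18 were tested; in Tip60dn against Tip60wt 4 were called higher and 6 lower at 48 h, and 2 higher and 4 lower at 78 h (median log2 fold change -0.22 and -0.11, against 0.01 for all genes at both). GNBP1, a recognition protein of the Toll pathway, averaged 63.1 ± 1.78 CPM in Tip60dn and 99.2 ± 4.62 CPM in Tip60wt discs at 48 h (SD, n = 3 each) and fell by 0.65 on the log2 scale (adjusted p = 1.97e-05), and by 0.59 at 78 h (adjusted p = 9.37e-05). GNBP3, which recognises fungal glucans, fell by 0.26 and 0.18 (adjusted p = 0.00121 and 0.00344). The serine protease gene grass fell by 0.76 and 0.61 (adjusted p = 0.00163 and 0.00252). Against control GNBP1 was called lower at both durations (-0.63 and -0.58, adjusted p = 1.54e-05 and 8.31e-05). GNBP3 was not called there (-0.11 and -0.09, adjusted p = 0.0613 and 0.0615), and grass was called lower only at 48 h (-0.49 and -0.29, adjusted p = 0.0117 and 0.0568). Other upstream genes were higher in Tip60dn than in Tip60wt discs, and these and SPE are named after their values were seen. The gene ea, that of a protease that cleaves Spätzle in the embryo, rose by 1.88 at 48 h (adjusted p = 0.00408) and by 1.29 at 78 h (adjusted p = 0.00452). Both gd and Hayan rose at 48 h by 1.34 (adjusted p = 0.0432) and 0.19 (adjusted p = 0.042). Neither was called at 78 h or against control. The gene SPE fell against Tip60wt by 0.79 at 48 h and 0.84 at 78 h (adjusted p = 0.00925 and 0.00375). Against control SPE was also called lower (-0.54 and -0.71, adjusted p = 0.0424 and 0.00685), and ea higher (1.89 and 1.37, adjusted p = 0.00326 and 0.00269). Without the 5 ligand genes, a split made after the values were seen, the calls over Tip60wt were 3 higher and 4 lower of 13 tested at 48 h, and 1 higher and 4 lower at 78 h. Among the 5 ligand genes spz3 was called higher and spz4 and spz6 lower over Tip60wt at 48 h, and spz3 higher at 78 h. In Tip60dn against control spz3 was not called (-0.17 and -0.04, adjusted p = 0.125 and 0.833). Tip60wt against control gave -0.66 for spz3 at 48 h, a call (adjusted p = 0.00206), and -0.49 at 78 h (adjusted p = 0.086). Of these ligand genes, spz5 was called higher than control at both durations and spz4 lower at 48 h. Against control, 2 of the 18 were called higher and 5 lower at 48 h, and 3 and 3 at 78 h, or 38.9% and 33.3%. Of all genes, 39% and 44.2% were called against control. The shares there were 33.3% at both durations for Toll receptors and 42.9% and 50% for Toll genes inside the cell. For Imd genes inside the cell they were 33.3% and 47.6%, for PGRP family genes 14.3% and 16.7%, and for antimicrobial genes 8.33% and 22.2%.

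Among 6 measured Toll family receptors other than Tl, 3 were tested, with 1 called higher over Tip60wt at 48 h and 2 at 78 h. Toll-7 had 513 ± 21.6 CPM in Tip60dn and 428 ± 10.5 CPM in Tip60wt discs at 48 h (SD, n = 3 each), and rose by 0.26 at 48 h (adjusted p = 0.0041) and by 0.38 at 78 h (adjusted p = 0.0049). Tollo rose by 0.24 at 78 h (adjusted p = 0.026), and had a value of 0.15 at 48 h (adjusted p = 0.0811). The 78 h call was lost without Tip60dn replicate 2 or 3 (0.25 and 0.19, adjusted p = 0.0578 and 0.101), and the 48 h value was called without Tip60dn replicate 1 (0.21, adjusted p = 0.0309). Over control, 1 of 3 was called at each duration, Toll-7 at 0.4 (adjusted p = 0.000431) and 0.53 (adjusted p = 0.000762).

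All 14 genes of the list on Toll signalling inside the cell, which also holds the gene of a scavenger receptor, pes, were tested. In Tip60dn against Tip60wt 1 was called higher and 5 lower at 48 h and 3 higher and 5 lower at 78 h, with median log2 fold changes of -0.05 and -0.04, against 0.01 for all genes. The beta-arrestin gene krz fell by 0.37 (adjusted p = 0.000259) and 0.32 (adjusted p = 0.0174), the scavenger receptor gene pes by 0.5 (adjusted p = 0.000812) and 0.3 (adjusted p = 0.00651), and mop, which acts in endosomal sorting, by 0.2 (adjusted p = 0.00446) and 0.16 (adjusted p = 0.0104), at 48 h and 78 h in each case. The 78 h call of krz was lost without Tip60dn replicate 1 or Tip60wt replicate 2 or 3 (-0.25 to -0.28, adjusted p from 0.05 to 0.0689). Against control the calls were 1 higher and 5 lower at 48 h and 2 higher and 5 lower at 78 h. There krz was called lower at both durations (-0.37 and -0.38, adjusted p = 0.00019 and 0.00601). The gene pes was called lower only at 48 h (-0.29 and -0.16, adjusted p = 0.00983 and 0.0658), and mop at neither (-0.1 and -0.05, adjusted p = 0.0861 and 0.337).

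On the Imd side, 21 of 21 genes inside the cell were tested, with 3 higher and 6 lower at 48 h and 4 higher and 5 lower at 78 h in Tip60dn against Tip60wt and medians of -0.03 and -0.02, against 0.01 for all genes. The ubiquitin-conjugating enzyme gene ben fell by 0.32 at both durations (adjusted p = 0.000967 and 8.07e-05), and casp, an inhibitor of the pathway, fell by 0.38 at both (adjusted p = 0.000472 and 9.17e-05). The inhibitor gene dnr1 rose by 0.38 at 48 h (adjusted p = 0.0186) and by 0.82 at 78 h (adjusted p = 0.000291), with the 48 h call lost without Tip60dn replicate 2 or Tip60wt replicate 2 (0.28 and 0.3, adjusted p = 0.0695 and 0.0611). Against control 1 was called higher and 6 lower at 48 h, and 4 higher and 6 lower at 78 h. There ben and casp were called lower at both durations. The value of dnr1 against control was 0.21 at 48 h (adjusted p = 0.133) and 0.55 at 78 h, a call (adjusted p = 0.00157). Of 11 PGRP family genes, 7 were tested at 48 h, 2 of them called higher over Tip60wt and 1 over control, and 6 at 78 h, 1 called higher over each, with none lower. PGRP-LB, an amidase that dampens the Imd response, had 1.35 ± 0.455 CPM in Tip60dn and 0.682 ± 0.145 CPM in Tip60wt discs at 48 h and rose by 0.98 (adjusted p = 0.0355), and by 1.34 at 78 h (adjusted p = 0.00668). The 48 h call was lost without Tip60dn replicate 1 or 3 or Tip60wt replicate 1 or 3 (0.7 to 1, adjusted p from 0.0682 to 0.139). PGRP-SB1 had 0.532 ± 0.195 CPM in Tip60dn and 0.0867 ± 0.0797 CPM in Tip60wt discs at 48 h and rose by 2.54 (adjusted p = 0.0317), a call lost without Tip60dn replicate 1 or 3 or Tip60wt replicate 2 (adjusted p = 0.0892, 0.065 and 0.062). Its mean in control discs was 0.696 ± 0.361 CPM, and the value in Tip60dn against control was -0.38 (adjusted p = 0.7).

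The antimicrobial genes of the lists were near the limit of detection. Of 35 measured antimicrobial peptide and effector genes, 12 passed the filter on low counts at 48 h and 9 at 78 h, and 7 to 20 of the 35 were at 0 in a library. The 35 genes summed to 2.23 to 8.14 CPM in Tip60dn, 1.72 to 11.4 in Tip60wt and 3.03 to 5.1 in control libraries at 48 h, with overlap between all 3 groups. The 11.4 CPM was in Tip60wt replicate 2, the library with 3050 CPM of fat body markers. Replicates 1 and 3 of Tip60wt had 3 and 1.72 CPM, below all control libraries and overlapping Tip60dn. The part of fat body RNA in these sums was not tested. At 78 h the 35 genes summed to 3.31 to 9.08 CPM in Tip60dn, 2.38 to 12.3 in Tip60wt and 2.99 to 4.64 in control libraries, again with overlap. The 2 genes called in Tip60dn against Tip60wt, both higher, were AttA and AttB, attacin genes so alike that their reads cannot be assigned with certainty. AttB had 0.813 ± 0.132 CPM in Tip60dn and 0.277 ± 0.0868 CPM in Tip60wt discs at 48 h (SD, n = 3 each; log2 fold change 1.56, adjusted p = 0.00384), and 1.05 at 78 h (adjusted p = 0.0342). The 78 h call was lost without Tip60dn replicate 1 or 2 or Tip60wt replicate 2 or 3 (0.87 to 1.07, adjusted p from 0.0818 to 0.113). It was also lost with limma-voom (adjusted p = 0.0525), with no filter on low counts (adjusted p = 0.05) and in the 6 libraries alone (adjusted p = 0.0728). The mean of AttB in control discs at 48 h was 0.994 ± 0.184 CPM, and Tip60dn against control gave -0.29 (adjusted p = 0.46). Tip60wt against control gave -1.85, a call (adjusted p = 0.00941). AttA had 0.163 ± 0.0629 CPM in Tip60dn, 0.0189 ± 0.0328 in Tip60wt and 0.152 ± 0.0163 CPM in control discs at 48 h, and its 48 h call over Tip60wt (adjusted p = 0.0283) was lost without Tip60dn replicate 1 or 2 or Tip60wt replicate 1 or 2 (adjusted p from 0.0691 to 0.0884). At 78 h AttA was called higher over Tip60wt (4.37, adjusted p = 0.00382), Tip60wt was called lower than control (-4.05, adjusted p = 0.0317), and Tip60dn against control gave 0.31 (adjusted p = 0.708). Over control, 1 gene was called at 48 h, Drsl5, and 2 at 78 h, IM33 and LysX, names chosen after their values were seen.

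**Figure D5:**
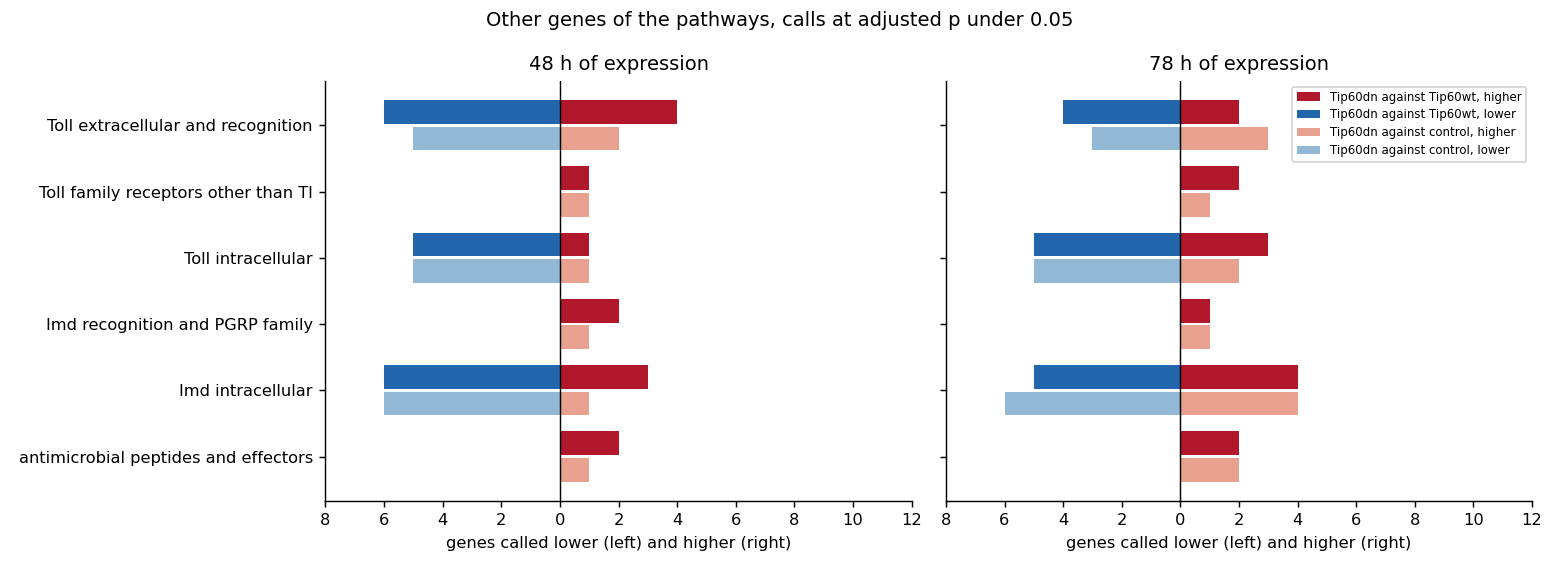
Number of genes called lower (left of 0) and higher (right of 0) in Tip60dn against Tip60wt (dark) and against control (light) at 48 h and 78 h, for 6 lists of other pathway genes. The lists on signalling inside the cell, of which the Toll list also holds the scavenger receptor gene pes, had calls in both directions. Each had 5 to 6 lower in each comparison.

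Dif and dl lie head to tail on chromosome 2L, with CG33928 between them, 2729 bases from Dif and 229 from dl. CG33928 had 0.0449 to 0.326 CPM over the 18 libraries and was not called in any comparison between arms. Of 15 tested genes within 50 kb of Dif, 1 was called higher and 4 lower in Tip60dn against Tip60wt at 48 h, and 1 and 3 at 78 h, or 33.3% and 26.7%, where 35.7% and 36.8% of all genes were called. Over the 10 members this share ran from 20% (Tl) to 48.1% (PGRP-LE) at 48 h, and from 20.8% (cact) to 66.7% (spz) at 78 h. Near spz, 8 of 15 tested genes were called higher and 2 lower at 78 h, against 25% called in all at 48 h. Against control 86.7% were called near spz at 78 h, 10 higher and 3 lower, where 44.2% of all genes were called. On the other side of dl lies CG5050, which fell by 0.88 at 48 h (adjusted p = 0.0135). The neighbours of PGRP-LC are PGRP-LA and PGRP-LF, and neither was called in Tip60dn against Tip60wt at either duration. The nearest genes of the other members were Nmdmc for Rel, fzy and CG4278 for cact, Lerp for Tl, Drep2 and CG13954 for Myd88, RYa-R and CG14257 for spz, GstE9 and Dp1 for imd, and CG15602 and sd for PGRP-LE. Of the 17 nearest genes of the 10 members, 4 were called higher and 5 lower in Tip60dn against Tip60wt at 48 h, and 4 higher and 3 lower at 78 h. Next to spz, RYa-R had 0.254, 0.321 and 0.3 CPM in Tip60dn discs and was at 0 in all Tip60wt and control libraries at 48 h (adjusted p = 0.00311 against Tip60wt). At 78 h it had 0.302, 0.404 and 0.745 CPM in Tip60dn discs, was at 0 in the 3 Tip60wt libraries (adjusted p = 0.00184) and had at most 0.0209 CPM in control libraries. Also higher were CG13954 by 1.19 and 0.79 (adjusted p = 0.008 and 0.0192) and Drep2 by 0.53 at both (adjusted p = 0.0257 and 0.0446), at 48 h and 78 h. So were CG15602 at 48 h by 0.33 (adjusted p = 0.00977) and CG14257 at 78 h by 0.54 (adjusted p = 0.000652). Lower at both were Nmdmc (-0.34 and -0.56, adjusted p = 0.012 and 0.000655), fzy (-0.32 and -0.39, adjusted p = 0.00209 and 0.000735) and Lerp (-0.31 and -0.35, adjusted p = 0.0463 and 0.00451). Dp1 was lower at 48 h (-0.18, adjusted p = 0.0437). Annotated exons on the opposite strand cover 4.42% of the exons of Dif (CG15141), 2.64% of imd (GstE9), 1.87% of cact (fzy) and 0.212% of spz (CG43935); the strand setting of the counting is not given in the sources used here, so reads there may be shared.

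The genes most like the 4 members with a called log2 fold change of at least 0.5 were found by Pearson's r of log2(CPM + 0.5) over the 18 libraries, a description in which all genes share the 18 libraries, their depth and the differences between the 6 groups. For Dif these were MRP (r = 0.95), CG44085 (0.94) and FBgn0015541 (0.94). MRP was high in the same group as Dif and averaged 408 CPM in Tip60dn, 203 CPM in Tip60wt and 235 CPM in control discs at 48 h, and 346 CPM in Tip60dn, 203 in Tip60wt and 212 CPM in control discs at 78 h. For spz they were vir-1 (0.95), CG44085 (0.91) and Dif itself (0.89). For Tl they were CG3726 (0.97), rdo (0.96) and unc-13 (0.95), and unc-13 averaged 1230 CPM in Tip60dn, 615 in Tip60wt and 465 CPM in control discs at 48 h, the same order of arms as Tl. For PGRP-LC they were firl (0.91), Herp (0.88) and Marf1 (0.87).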

How the data were processed

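The authors deposited whole-number counts per FlyBase gene for 2 tables of 9 libraries, 48 h and 78 h. FastQC, featureCounts, edgeR 3.13.4 and limma and the build BDGP6 are named, without roles, in the submitters' processing notes. The libraries are poly(A)-selected and directional, per the labels' protocols, while neither the aligner nor the strand setting is stated there.

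Counts were fitted with edgeR 4.0.16 (TMM, filterByExpr with a minimum count of 10, quasi-likelihood test, R 4.3.3) over the 9 libraries of a duration, or over all 18 for changes between durations. p-values were adjusted over all genes tested. The standard error is the size of the log2 fold change divided by the square root of F. CPM use TMM factors of the 18 libraries, RPKM the union of exons in the Ensembl annotation of build BDGP6.54. Symbols were found for 17253 of 17559 genes. On counts simulated with known changes, the fit recovered most changed genes, and fewer of those with low counts. Alternatives were RLE size factors, no low-count filter, DESeq2 1.42.0, limma-voom (limma 3.58.1), the 6 libraries compared alone, a replicate block, and leaving out each library. Same-numbered libraries deviated together in Tip60dn and Tip60wt at 78 h (residual correlation 0.26, 0.39 and 0.38) and in Tip60wt and control at 48 h (0.31, 0.11 and 0.33). Those numbers were taken to pair libraries on these correlations alone. The block ended the call of cact in the first and added that of dl in the second. Between control libraries at 78 h and 48 h the correlations were also highest for the own number, but low (0.061, 0.094 and 0.1).

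The rule for named genes took all 10 members, up to 3 called genes with the smallest adjusted p per list, the 3 genes most like a member (mean of 5 CPM or more), and the nearest neighbour on each side. Members and lists were chosen with earlier results of these data known. Genes of the lists that did not match by current symbol, among them the antimicrobial peptide gene Drs, were not analysed here.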

Additional observations from a re-analysis of the deposited data

How the results depend on the processing

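Of 60 member values between arms, 30 kept their direction and their side of the threshold under all 12 alternatives; 14 lost a call under at least 1 of them, 10 gained one and 6 changed sign. The 7 members called in Tip60dn against Tip60wt at 48 h became 4 with no filter on low counts and 4 with the replicate block, and 2 to 7 when 1 library was left out. The 8 at 78 h became 4 in the fit of the 6 libraries alone, 7 with the replicate block, and 4 to 6 with 1 library left out. Against control, the 3 at 48 h became 5 with the replicate block and 3 to 5 with 1 library left out, and the 7 at 78 h became 4 to 6 with 1 library left out. For Tip60wt against control, the replicate block gave 1 member at 48 h (dl) and 1 at 78 h (Tl, adjusted p = 0.0485), DESeq2 gave 2 at 78 h, and leaving out 1 library gave 0 to 1 there. Beyond the fewer libraries of some settings, the cause was not tested. In the 2 comparisons where replicate numbers were taken to pair libraries, the block changed no member call but those of cact and dl. Elsewhere pairing was not assumed.

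None of the 9 values that changed sign was called at first. For dl in Tip60dn against control at 48 h they were 0 with DESeq2, RLE size factors and the 6 libraries alone, -0.02 with no filter, and -0.05 to 0.1 with 1 library left out. With 1 library left out, PGRP-LE in Tip60wt against control ran from -0.06 to 0.07 at 48 h and from -0.07 to 0.03 at 78 h (0 in the 6 libraries alone), cact from -0.04 to 0.01 and Myd88 from -0.05 to 0.01 in Tip60wt against control at 78 h, and PGRP-LC from -0.01 to 0.35 in Tip60dn against control at 48 h. Among list genes against control, AttA ran from -0.14 to 0.37 at 48 h, AttB from -0.11 to 0.34 at 78 h (0 with the block), and PGRP-SB1 from -0.69 to 0.08 at 48 h. Of 53 changes between durations that are not named, set aside after the results were seen, 29 changed sign and 0 were called in any alternative.

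The alternatives for lists and markers were added after seeing the data: 33 of 60 counts of genes called moved by over 1.5 times under at least 1 of them, and 8 of 60 named list values lost a call. Values of named list genes were recomputed only in comparisons with Tip60dn, and counts of neighbours not at all. Low counts limit the antimicrobial peptide genes most.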
